A study of Mus musculus with 4 samples.

Results

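The BCL2 family decides at the mitochondrion whether a cell starts apoptosis, and its transcripts were followed here in J774.1 cells, a mouse monocyte-macrophage line, after proteasome inhibition. The 10 genes were taken by name, as the probes whose transcript accession belongs to *Bcl2*, *Bcl2l1*, *Mcl1*, *Bax*, *Bak1*, *Bcl2l11*, *Pmaip1*, *Bbc3*, *Bid* or *Bad* in the mouse RefSeq table of GRCm38.p6. No measured value entered this choice. All 10 genes had a probe, among 20133 genes that could be named on the array, and together they held 13 of 39429 probes. The cells received MG132, epoxomicin or ONX0914 at 1 μM, or DMSO as the solvent control, for 4 hours. MG132 is a general proteasome inhibitor, epoxomicin is labelled as a 20S inhibitor and ONX0914 as an inhibitor of the β5 and β5i subunits. The treatment label of the ONX0914 array reads ONX-0912, while its title reads ONX-5 and its treatment protocol names ONX0914 alone, which was followed. Every condition was measured on 1 array, so no difference has a replicate check and no test between conditions was possible. All cells belonged to the same established line.

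Proteins of this family share short BCL2 homology (BH) motifs and fall into groups by what they do at the outer mitochondrial membrane. BAX and BAK1 are the effectors that form pores and release cytochrome c. BCL2, BCL-XL (from *Bcl2l1*) and MCL1 hold them in check, and the BH3-only proteins BIM (*Bcl2l11*), NOXA (*Pmaip1*), PUMA (*Bbc3*), BID and BAD bind the pro-survival proteins or the effectors to tip that balance. Several of these proteins, among them MCL1, NOXA and BIM, are themselves cleared by the proteasome, and an array reads their transcripts only.

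Sequences before the start sites of *Bcl2l11*, *Bbc3* and *Bax* are shown because these genes hold the matches to motifs of factors known to act on the family. The promoter table of RefSeq (GRCm38.p6) gave 15 windows of 250 bases before a start site for 9 of the genes, and *Pmaip1* was not matched. The windows were searched on both strands for the FOXO motif GTAAACA, the cAMP response element TGACGTCA, the ATF4-CHOP composite element TGATGNAA and the p53 half-site by its name. The first line gives the window before the outermost start of *Bcl2l11* (chr2:128125788-128126037, plus strand), and the other lines give 30 bases around a match of *Bbc3* (chr7:16310083-16310112, plus strand) and of *Bax* (chr7:45467080-45467109, minus strand). All are written 5′ to 3′ along the transcript, and capitals mark the match.
Bcl2l11, FOXO motif: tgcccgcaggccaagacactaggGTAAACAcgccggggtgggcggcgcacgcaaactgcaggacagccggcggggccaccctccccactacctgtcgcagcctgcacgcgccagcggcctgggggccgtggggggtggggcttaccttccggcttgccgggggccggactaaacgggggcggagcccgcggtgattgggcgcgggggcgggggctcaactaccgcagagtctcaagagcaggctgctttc
Bbc3, FOXO motif: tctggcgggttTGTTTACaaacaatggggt
Bax, p53 half-site: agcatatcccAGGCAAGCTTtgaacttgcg

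The FOXO motif began 227 bases before the start of *Bcl2l11* and, on the opposite strand, 167 bases before a start of *Bbc3*. It was held by 2 of the 15 windows, beside 3.17% of all 32851 windows of the same length. The p53 half-site was held by the *Bax* window alone among the 15, 201 bases before its start, and by 7.13% of all windows. The cAMP response element and the ATF4-CHOP element were in 0 of the 15 windows, and in 1.55% and 3.45% of all windows. These matches describe letters in a window and were not tested for binding.

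The 4 arrays were read with Cy3 on 1 slide, and each signal was placed on the log2 scale relative to the 75th percentile of its array. That percentile was 1654 on the DMSO, 1453 on the MG132, 1683 on the epoxomicin and 1612 on the ONX0914 array. Signals are printed before this scaling, while differences and folds were taken after it. The order of arrays can therefore differ between the signals and the differences of a gene. Between 60.3% and 63.1% of the spots on an array were well above background by the scanner software, no spot was saturated, and spots of the same probe had a median SD of 0.0551 to 0.0611 on the log2 scale. For a difference between 2 arrays in any of the 10 genes, the error estimated by the scanner software lay between 0.204 and 0.206. That error was nearly the same for every gene and pair of arrays, whatever the signal. Both errors cover the reading of an array and leave out the spread between cultures. The cells carried the macrophage markers, with 8 of 9 measured markers well above background on all arrays and *Mrc1* on none. Of 12 markers of T cells, B cells, fibroblasts and epithelium, 8 were well above background on no array. *Cd3e* (signals of 604 to 850) and *Col1a2* (61.2 to 85.6) were so on every array. The epithelial keratin gene *Krt8* was so with MG132 (37.8) and epoxomicin (121) but not with DMSO (4.16) or ONX0914 (5.30), and *Krt18* with epoxomicin alone (33.7). The summed signal of these 12 genes was 1024 on the DMSO, 988 on the MG132, 911 on the epoxomicin and 875 on the ONX0914 array, and their part in the differences below was not tested. The sum over the macrophage markers was 359470, 277156, 313586 and 339486 in the same order. Over 10 reference genes, among them *Actb* and *Gapdh*, the sum was 1614635, 1382208, 1474624 and 1513834. These sums are before scaling, so they also carry the brightness of each array. Fewer expressing cells, less RNA per cell and a dimmer array cannot be told apart by such sums in bulk samples.

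All 10 genes were well above background on all 4 arrays, so every difference below was measured on both sides. Of the 10, 3 were at least 2-fold above DMSO with MG132 and 0 at least 2-fold below it, while 7.13% of 13990 genes were higher and 3.59% lower by this threshold. With epoxomicin, 3 were higher and 1 lower, against 8.30% and 4.44% of 14045 genes. With ONX0914, 2 were higher and 0 lower, against 3.23% and 1.39% of 13981 genes. All the higher genes were BH3-only genes, and the lower gene was the effector *Bak1*. The 3 comparisons share the DMSO array. Over the 10 genes the median log2 difference stood at 0.28 for MG132, 0.17 for epoxomicin and 0.02 for ONX0914, beside medians of −0.013, −0.036 and −0.0036 over all genes compared.

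**Figure D1:**
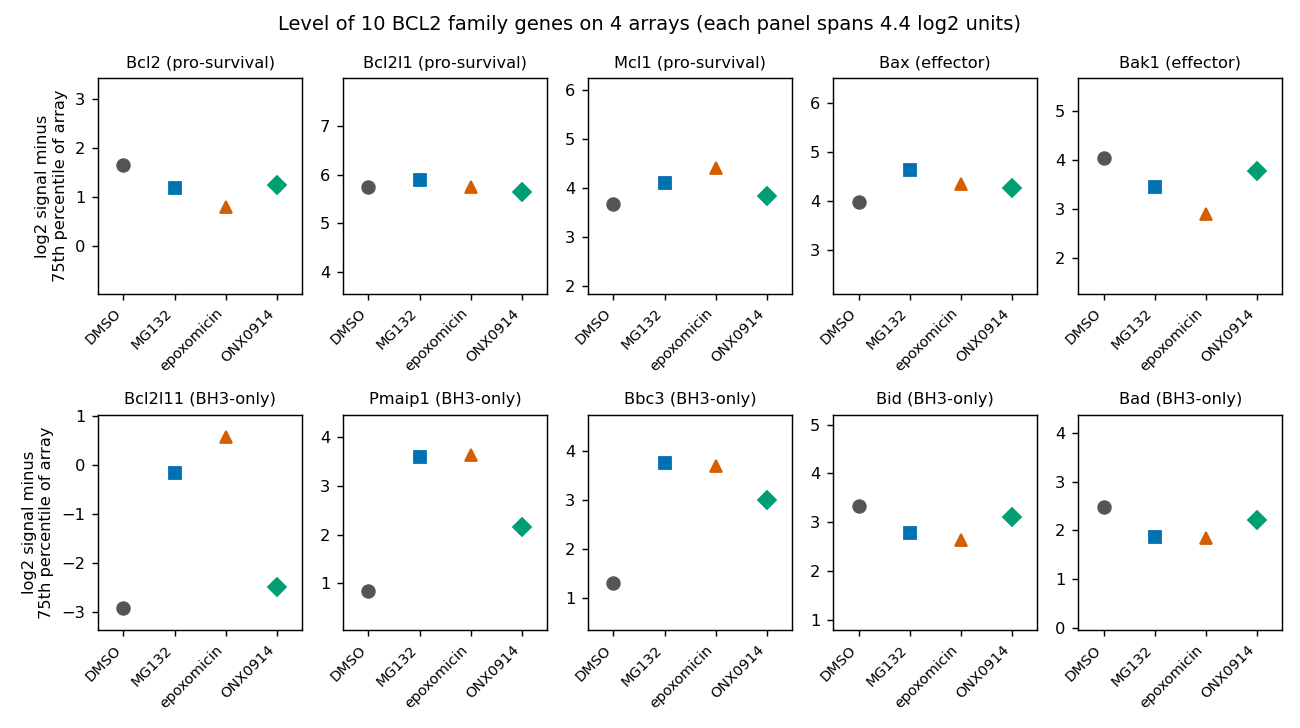
Level of each of the 10 genes on the DMSO, MG132, epoxomicin and ONX0914 arrays (1 point per array, no replicates), as log2 signal minus the 75th percentile of the array. Every panel spans the same number of log2 units, so steps can be compared between panels, while levels of different probes cannot. *Bcl2l11*, *Pmaip1* and *Bbc3* show the largest steps, and the ONX0914 point of *Bcl2l11* lies near its DMSO point.

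The BH3-only genes divided into a group that was higher with the inhibitors and a pair that was not. *Bcl2l11* encodes BIM, a BH3-only protein that binds all the main pro-survival proteins. Its probe (NM_207680) read 217 in DMSO-treated cells, 1304 after MG132, 2499 after epoxomicin and 285 after ONX0914. The MG132 and epoxomicin arrays stood apart from the other 2, and DMSO and ONX0914 were close to each other. Compared with DMSO, *Bcl2l11* was 6.83-fold higher after MG132, a log2 difference of 2.77. The difference reached 11.3-fold after epoxomicin (3.50) and was 1.35-fold after ONX0914 (0.43). The last value changed sign under normexp, to −0.22. Normexp, a background correction fitted to the brightness of all spots, gave 1.89 with MG132 and 2.57 with epoxomicin. Fitted without outlier spots, it gave 2.45, 3.14 and 0.34 with MG132, epoxomicin and ONX0914, with no change of sign. The lowest signal called well above background on the DMSO array was 14.7. RefSeq lists other *Bcl2l11* transcripts beside NM_207680, and whether the probe reads them was not tested.

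*Pmaip1* encodes NOXA, a BH3-only protein that binds MCL1. Its probe (NM_021451) read 2989 in DMSO-treated cells, 17552 after MG132, 20871 after epoxomicin and 7146 after ONX0914. All inhibitor arrays lay above DMSO, with ONX0914 between DMSO and the other 2. Compared with DMSO, the gene was 6.68-fold higher after MG132 (2.74), 6.86-fold after epoxomicin (2.78) and 2.45-fold after ONX0914 (1.29). Over the alternative settings these differences lay between 2.55 and 2.76, between 2.71 and 2.83 and between 1.24 and 1.33 on the log2 scale.

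*Bbc3* encodes PUMA, which p53 induces and which also binds all the main pro-survival proteins. Its probe (NM_133234) read 4091 on the DMSO array and 19641, 21881 and 12823 on the MG132, epoxomicin and ONX0914 arrays. As for *Pmaip1*, ONX0914 lay between DMSO and the other inhibitors, with a smaller gap to them. The inhibitor values were 5.46-fold (2.45), 5.26-fold (2.39) and 3.22-fold (1.69) above DMSO in that order. Among the 10 genes, *Bbc3* had the largest difference from DMSO with ONX0914, and *Bcl2l11* with MG132 and with epoxomicin. With MG132 the lead of *Bcl2l11* over *Pmaip1* (2.77 against 2.74) was smaller than the software error. Normexp placed *Pmaip1* above *Bcl2l11*, at 2.75 against 1.89 with MG132 and 2.83 against 2.57 with epoxomicin.

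*Bid* and *Bad* were on the other side of DMSO. BID carries the signal of death receptors to the mitochondrion after cleavage by caspase-8, and BAD is held inactive by phosphorylation downstream of growth factors. *Bid* (NM_007544) read 16796 on the DMSO array and 10014, 10513 and 14003 on the MG132, epoxomicin and ONX0914 arrays. Its log2 differences from DMSO were −0.56, −0.70 and −0.23 in the order MG132, epoxomicin, ONX0914. *Bad* (NM_007522) had signals of 9227, 5304, 6012 and 7490 on the DMSO, MG132, epoxomicin and ONX0914 arrays, and its differences were −0.61, −0.64 and −0.26. A second probe of *Bad* gave −0.47, −0.78 and −0.19. None of these values reached 2-fold, and those with ONX0914 were close to the software error.

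**Figure D2:**
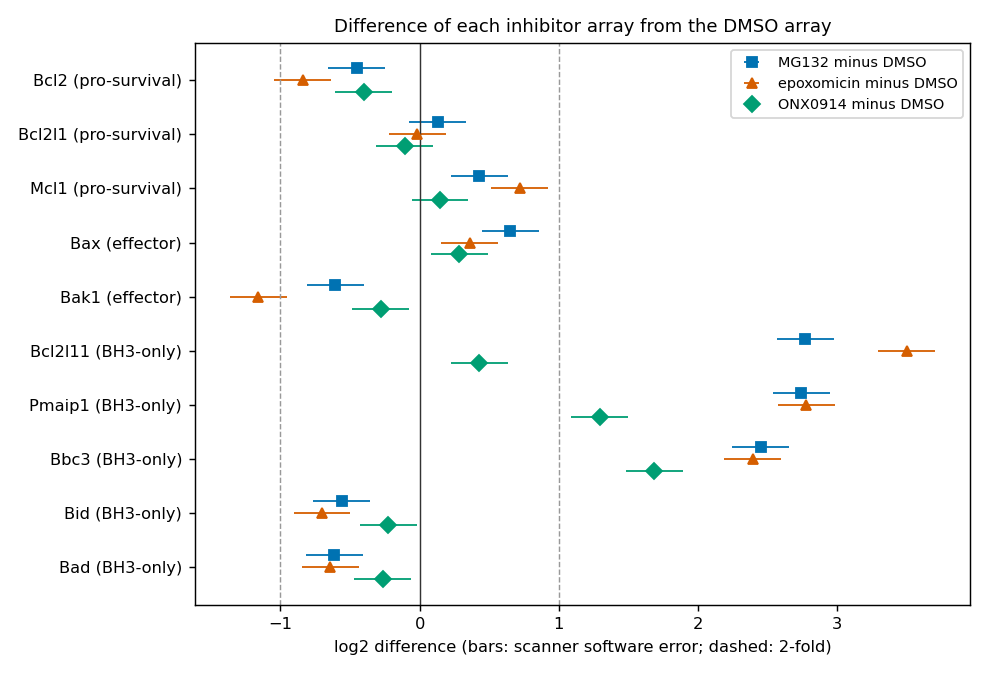
Log2 difference of each inhibitor array from the DMSO array for the 10 genes, ordered by role (squares, MG132; triangles, epoxomicin; diamonds, ONX0914). Bars show the error estimated by the scanner software for 1 array against 1 array, and dashed lines mark 2-fold. *Bcl2l11*, *Pmaip1* and *Bbc3* lie between 2.39 and 3.50 with MG132 and epoxomicin, and *Bak1* is the gene beyond 2-fold in the lower direction, with epoxomicin.

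The effectors differed from DMSO in opposite directions. *Bak1* (NM_007523) read 27442 in DMSO-treated cells, 15855 after MG132, 12503 after epoxomicin and 22030 after ONX0914, lowest on the epoxomicin array. Its log2 differences were −0.60 with MG132, −1.16 with epoxomicin (2.23-fold lower) and −0.28 with ONX0914. With epoxomicin the value stayed between −1.23 and −1.02 over all alternative settings. *Bax* (NM_007527) was highest on the MG132 array, at 35921, beside 34029 on the epoxomicin, 30911 on the ONX0914 and 26042 on the DMSO array. The differences of *Bax*, a p53 target in many cells, were 0.65, 0.36 and 0.28 and stayed above 0 in every alternative setting.

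Among the pro-survival genes, *Mcl1* was above DMSO, *Bcl2* was below it and *Bcl2l1* was close to it. MCL1 is a short-lived protein on which many myeloid cells depend. The *Mcl1* probe with the highest signal (NM_008562) read 21227 in DMSO-treated cells, 25089 after MG132, 35554 after epoxomicin and 22894 after ONX0914. Its differences were 0.43, 0.72 and 0.15 in the order of the inhibitors. The gene's other probe read 4517, 7735, 10745 and 6193 on the same arrays and gave larger differences of 0.96, 1.23 and 0.49. The probes shared the order of the arrays, with epoxomicin highest and DMSO lowest, and disagreed on whether epoxomicin passed 2-fold. What each probe binds within the transcript was not tested.

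*Bcl2*, the founding member of the family, read 5173 (NM_177410) in DMSO-treated cells, 3322 after MG132, 2941 after epoxomicin and 3816 after ONX0914. Every inhibitor array was below DMSO, with differences of −0.45, −0.84 (1.79-fold lower) and −0.40. *Bcl2l1* (NM_009743), which encodes BCL-XL, had signals of 89310, 85827, 89836 and 80757 on the DMSO, MG132, epoxomicin and ONX0914 arrays. After scaling, its differences of 0.13, −0.02 and −0.11 were smaller than the software error, and each changed sign under at least 1 alternative setting. A second *Bcl2l1* probe, with signals of 1252 to 1614, gave 0.37, −0.21 and 0.09.

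Set among all genes compared, *Bcl2l11* ranked 116 among the increases with MG132, 77 with epoxomicin and 1549 with ONX0914. *Pmaip1* ranked 123, 163 and 292, and *Bbc3* ranked 168, 231 and 173, in the same order of inhibitors. *Bbc3* therefore kept nearly the same place on every array, while the place of *Bcl2l11* dropped with ONX0914. At the other end, *Bak1* ranked 398 among the decreases with epoxomicin, 1677 with MG132 and 2470 with ONX0914, and *Bcl2* ranked 985 with epoxomicin.

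**Figure D3:**
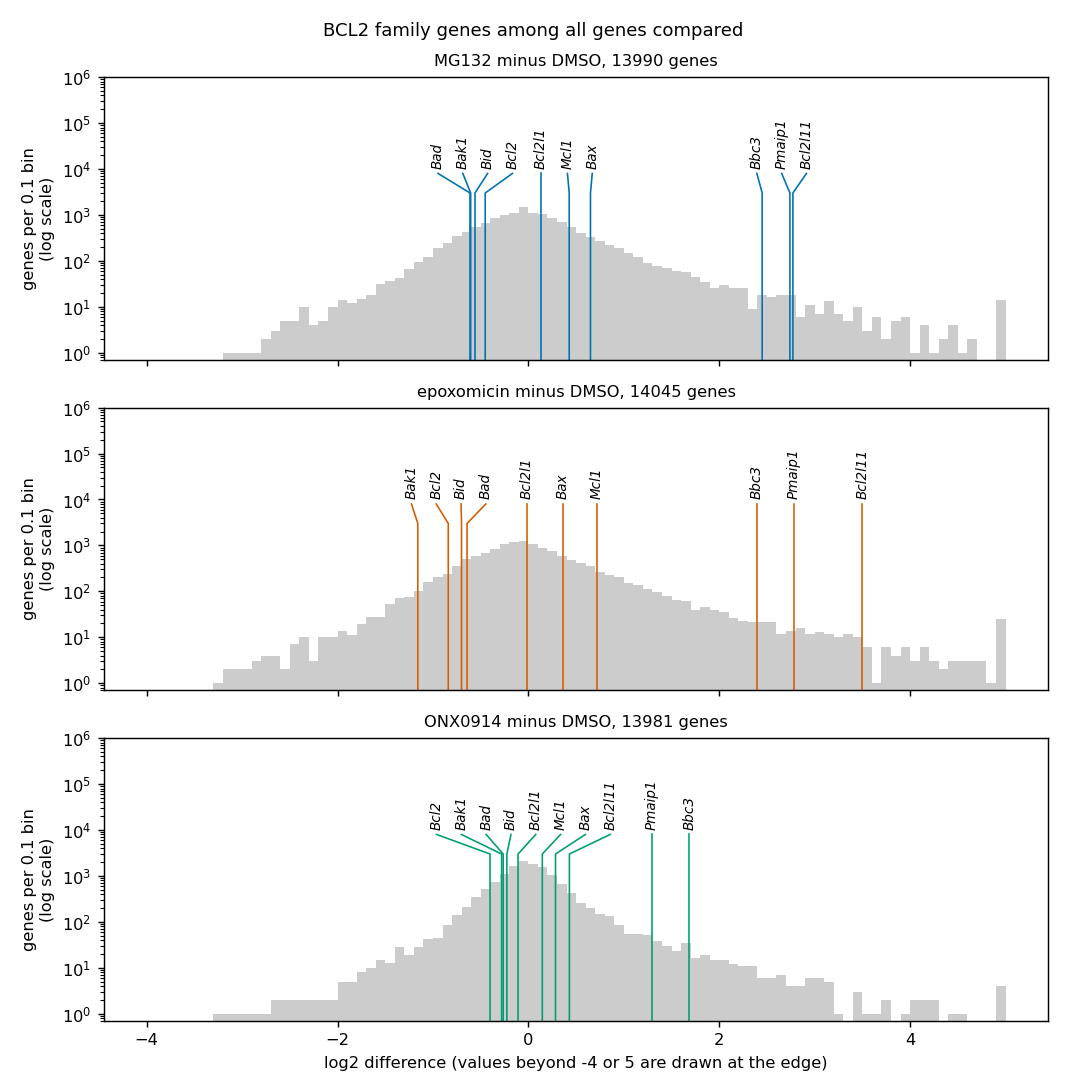
Histograms of the log2 difference from DMSO over all genes compared, each well above background on the inhibitor array, the DMSO array or both (grey, genes per bin of 0.1 on a log axis), with a line for each of the 10 genes. The 3 BH3-only genes *Bcl2l11*, *Pmaip1* and *Bbc3* stand in the upper tail with MG132 and epoxomicin, and *Bcl2l11* lies at 0.43 with ONX0914.

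The inhibitor arrays were then compared with each other, at the same dose and time and without the DMSO array. This made 3 pairs, and with 1 array per compound none could be tested, so a small difference does not show that compounds acted alike. *Bcl2l11* was 5.07-fold lower with ONX0914 than with MG132 (log2 difference −2.34 ± 0.205, software error) and 8.39-fold lower than with epoxomicin (−3.07 ± 0.205). *Pmaip1* was 2.73-fold lower with ONX0914 than with MG132 (−1.45) and 2.80-fold lower than with epoxomicin (−1.48). *Bbc3* was lower by less than 2-fold, with differences of −0.76 and −0.71. These directions held in every alternative setting run on the pairs, where *Bcl2l11* lay between −2.36 and −2.11 against MG132 and between −3.13 and −2.80 against epoxomicin. In all, 2 of the 10 genes were at least 2-fold apart between ONX0914 and MG132, beside 4.12% of 13708 genes in either direction, and 2 between ONX0914 and epoxomicin, beside 5.94% of 13794 genes. They were *Bcl2l11* and *Pmaip1* in both pairs, which share the ONX0914 array. *Bak1* was higher with ONX0914 than with epoxomicin, by 0.88.

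Epoxomicin and MG132 were closer. Of the 10 genes, 0 were at least 2-fold apart, beside 1.47% of 13633 genes. *Bcl2l11* was 1.66-fold higher with epoxomicin than with MG132 (0.73), and *Bak1* was 1.47-fold lower (−0.55). *Pmaip1* (0.04) and *Bbc3* (−0.06) differed by less than the software error.

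**Figure D4:**
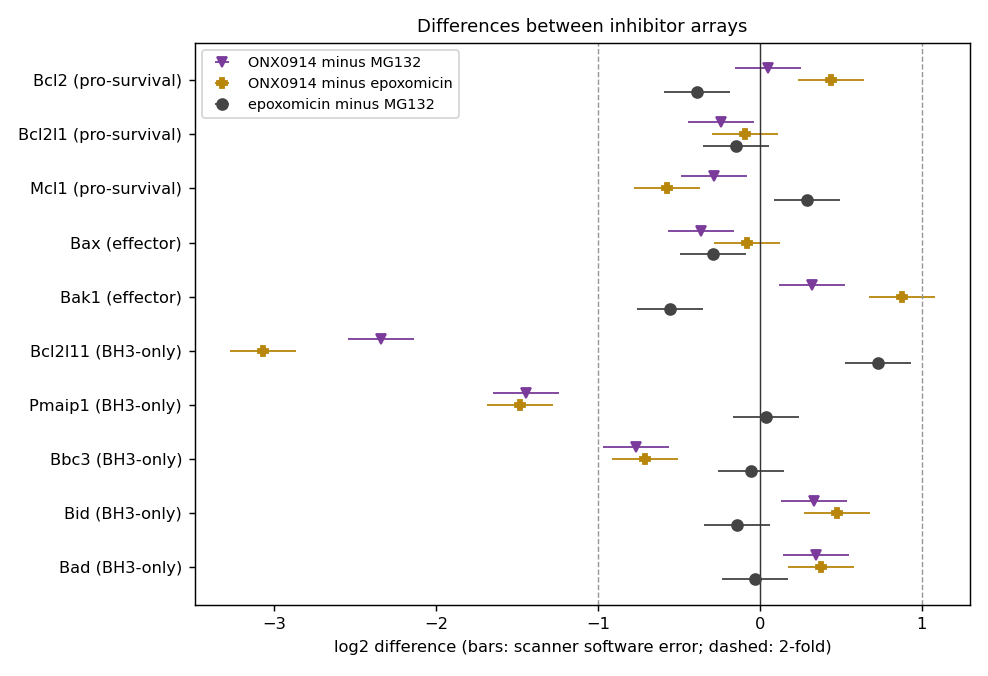
Log2 differences between inhibitor arrays for the 10 genes (inverted triangles, ONX0914 minus MG132; plus signs, ONX0914 minus epoxomicin; circles, epoxomicin minus MG132). Bars show the software error for 1 array against 1 array, and dashed lines mark 2-fold. Beyond 2-fold lie only *Bcl2l11* and *Pmaip1*, both lower with ONX0914.

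The rest of the BCL2 family was listed as well. Of 16 further family genes, 14 had a probe and 11 were well above background on every array. The effector gene *Bok*, the pro-survival gene *Bcl2l10* and the BH3-only gene *Hrk* were so on no array, and *Bcl2a1a* and *Bcl2a1b* were not analysed here. Of the 11, at least 2-fold higher were 1 after MG132, 2 after epoxomicin and 1 after ONX0914, and 1 was lower, after ONX0914, where 3.23% of all genes compared were higher and 1.39% lower. The higher share of all genes was 7.13% after MG132 and 8.30% after epoxomicin. Their medians were 0.08, 0.04 and −0.01. *Bik*, a BH3-only gene of the endoplasmic reticulum, was faint, with signals of 20.0, 57.7, 45.4 and 65.2 on the DMSO, MG132, epoxomicin and ONX0914 arrays, and was 3.29-fold, 2.23-fold and 3.35-fold higher with the inhibitors. *Bmf*, a BH3-only gene linked to the cytoskeleton, was the gene at least 2-fold lower with ONX0914, with signals of 756, 385, 483 and 225 and differences of −0.79, −0.67 and −1.71. *Bcl2l15* passed 2-fold with epoxomicin (1.08), from a signal of 67.0 with DMSO. The pro-survival genes *Bcl2a1d* (0.63, 0.31 and 0.45) and *Bcl2a1c* (0.84, 0.57 and 0.67) were above DMSO by less than 2-fold. They belong to a cluster of near-identical copies that an array probe may not separate.

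A further list held 12 genes of the apoptosome, the caspases (with the initiator caspase genes *Casp8* and *Casp2*) and the proteins released from mitochondria. Of these 12, 0 were at least 2-fold higher with MG132, epoxomicin or ONX0914, beside 7.13%, 8.30% and 3.23% of all genes compared. At least 2-fold lower were 2 after MG132, 1 after epoxomicin and 0 after ONX0914, beside 3.59%, 4.44% and 1.39% of all genes compared. *Casp9*, the initiator caspase of the apoptosome, had signals of 4711, 1983, 2271 and 3137 on the DMSO, MG132, epoxomicin and ONX0914 arrays, with differences of −1.06, −1.08 and −0.55. *Casp6*, an executioner caspase, was also 2-fold lower with MG132 (−1.07) and stood at −0.99 with epoxomicin and −0.37 with ONX0914. The medians of the 12 genes were −0.16, −0.30 and −0.11. The 8 inhibitor of apoptosis genes lay between −0.49 and 0.67 with every inhibitor. Of these 8, 0 passed 2-fold, beside the same shares of all genes compared, which are small for a list of this size.

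Of 7 genes of the death receptor pathway, 2 were at least 2-fold higher with MG132, 3 with epoxomicin and 1 with ONX0914, beside 7.13%, 8.30% and 3.23% of all genes compared. *Fas*, a death receptor, had signals of 1587, 3557, 3533 and 3862 in the order DMSO, MG132, epoxomicin, ONX0914 and differences of 1.35, 1.13 and 1.32. *Cflar*, which encodes the caspase-8 inhibitor cFLIP, gave 1.39, 1.27 and 0.96, and the kinase gene *Ripk1* gave 0.91, 1.16 and 0.43. *Fadd*, the adaptor between FAS and caspase-8, was below DMSO at −0.73, −0.70 and −0.37.

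Genes for factors that act on the family were listed as well. Of these 12, at least 2-fold higher were 4 after MG132, 4 after epoxomicin and 5 after ONX0914, and 0 were lower. The share of all genes compared that was higher was 7.13%, 8.30% and 3.23%, and the list was chosen with earlier results of these data known. The lower share was 3.59%, 4.44% and 1.39%, which is small for a list of this size. *Ddit3* encodes CHOP, a stress factor known to act on *Bcl2l11* and *Bbc3*, and had signals of 998, 7835, 6864 and 8684, with differences of 3.16, 2.76 and 3.16. *Atf4* gave 1.12, 1.08 and 1.27 and *Atf3* gave 4.39, 4.57 and 2.91. *Mdm2*, a p53 target that encodes the ubiquitin ligase of p53, had signals of 13352, 177796, 206014 and 61435, with differences of 3.92, 3.92 and 2.24. *Trp53* itself was close to DMSO, at −0.06, −0.09 and 0.18. *Foxo3*, which encodes a factor of the FOXO motif, was faint (25.1 to 30.6) and gave 0.21, 0.17 and −0.05. *Trim17*, a ubiquitin ligase gene linked to MCL1 turnover, was 4.98-fold higher with ONX0914 (2.32) from a faint signal of 25.5 with DMSO, and stood at −0.17 with MG132 and −0.22 with epoxomicin. The *Mcl1* regulators *Huwe1*, *Usp9x* and *Fbxw7* lay between −0.15 and 0.43.

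**Figure D5:**
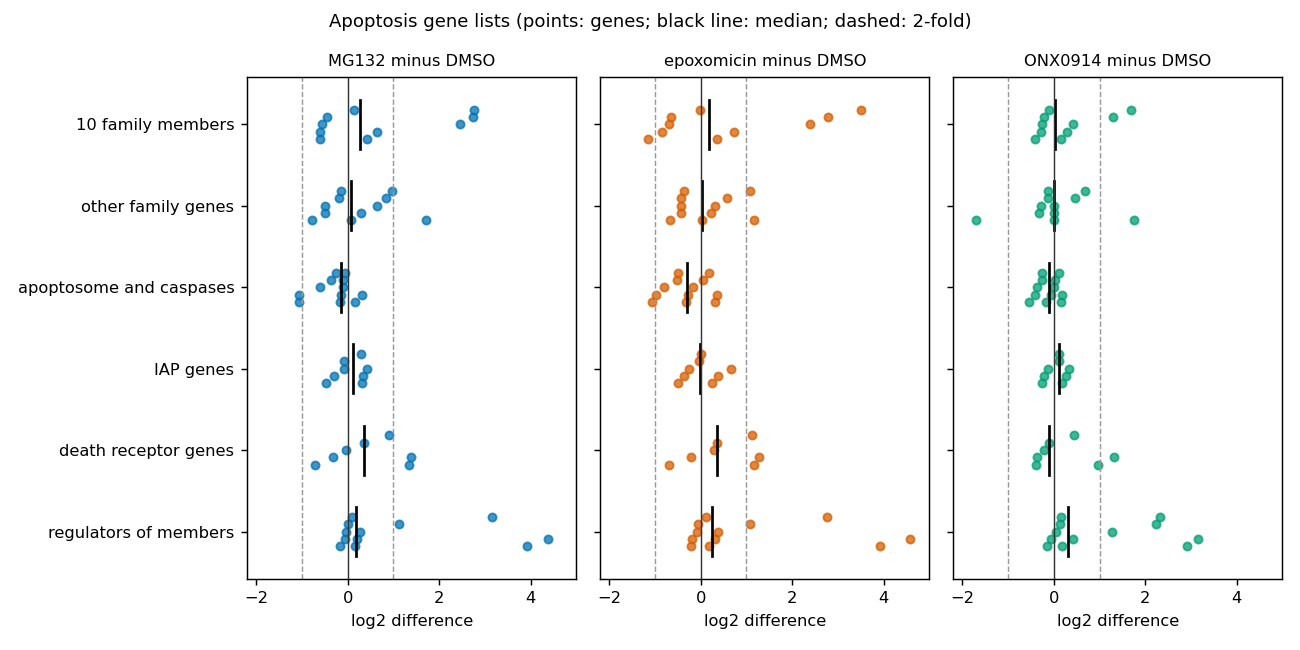
Log2 difference from DMSO of every measured gene of 6 lists, with MG132, epoxomicin and ONX0914 in separate panels (points, genes; black lines, list medians; dashed lines, 2-fold). The points far to the right in the top row are *Bcl2l11*, *Pmaip1* and *Bbc3* with MG132 and epoxomicin, and those in the bottom row are *Atf3*, *Mdm2* and *Ddit3*, joined by *Trim17* with ONX0914.

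For the genes that passed 2-fold with any inhibitor, the nearest patterns were sought among 12730 genes measured on all arrays, by the Euclidean distance over the 3 log2 differences from DMSO. Nearest to *Bcl2l11* were *Amhr2* (2.95, 3.44 and 0.36, distance 0.20) and *Hbegf* (2.62, 3.33 and 0.38, distance 0.23). *Snhg12* (2.90, 2.75 and 1.46) and *Tmem140* (2.59, 2.73 and 1.51) were nearest to *Pmaip1*. The nearest genes to *Bbc3* were *Ifi213* (2.40, 2.51 and 1.68) and *Epha2* (2.62, 2.37 and 1.58), and those to *Bak1* were *Arhgef10l* (−0.62, −1.14 and −0.34) and *Il27ra* (−0.54, −1.20 and −0.28). With 3 values per gene that share the DMSO array, these are descriptions only.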

How the data were processed

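Expression of J774.1 cells was measured on 4 Agilent arrays, 1 per condition. Per the file headers, a mouse design was read with Feature Extraction 10.7.1.1, whereas the Methods name a human design. The authors deposited for every spot the intensity after background subtraction within the array, its error, the brightness of spot and background, and 0 or 1 calls as a score of detection. They also deposited a GeneSpring table of log2 values, which correlated at 0.99989 to 0.99995 with the scaled signals centered on each probe's median, in the same direction. Its columns had medians of −0.048, 0.018, −0.019 and 0.013 (DMSO, MG132, epoxomicin, ONX0914). Its settings are not given in the sources used here.

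Control spots and spots marked as outliers (159 to 194 per array) were left out. The log2 signal minus the 75th percentile over spots was averaged per probe. Of 39429 probes, 26581 (67.4%) had a symbol, and the probe with the highest mean stood for a gene. Genes well above background on at least 1 of 2 arrays were compared, with a bound for a dim signal, and counted at 2-fold. The gene lists and the rule for named genes were chosen with earlier results of these data known. Named were the 10 family genes, listed genes 2-fold from DMSO in the same direction with every inhibitor or 4-fold with any, listed genes behind small counts, and the 2 nearest patterns. *Fadd*, *Foxo3*, *Trp53*, *Bcl2a1c*, *Bcl2a1d*, *Huwe1*, *Usp9x* and *Fbxw7* were named after their values were seen. The alternatives were normexp (offset 50, on median brightness), other scalings, the deposited table, other rules for probes and filters, and thresholds of 1.5-fold and 4-fold. The steps were tested on simulated data. Python 3.11.15 (numpy 2.4.6, pandas 2.3.3) and R 4.3.3 with limma 3.58.1 were used.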

Additional observations from a re-analysis of the deposited data

How the results depend on the processing

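Counts of the 10 genes beyond 2-fold were the same under every alternative apart from the thresholds. Putting a gene's other probe in place of its main probe was not among these alternatives. The other probe of the pro-survival gene *Mcl1* was itself more than 2-fold above DMSO with epoxomicin (1.23). At 1.5-fold, 4 were higher and 2 lower with MG132, and 4 were higher and 4 lower with epoxomicin. At 4-fold, 0 were lower with epoxomicin and 0 higher with ONX0914. The share of all genes was not computed at these thresholds, so these counts have no background beside them. Of 300 pairs of a difference from DMSO and an alternative, 246 moved by less than 0.0864 and 54 by more. That limit is the largest median SD of spots, 0.0611, carried to a difference between 2 arrays. Among the pairs, 5 changed sign, none of them at 2-fold. Some of these pairs could not move. All 10 genes were well above background on every array, so leaving out bounds changed none of them. Requiring detection on all arrays was run for the counts only and is not among these pairs. The mean over probes could change only the genes with more than 1 probe. The sign changes were those of *Bcl2l1* and of *Bcl2l11* with ONX0914. Counts over all genes moved most with normexp, to 470 higher and 2715 lower with MG132, 568 and 3290 with epoxomicin, and 192 and 2928 with ONX0914. Fitted without outlier spots, a choice made after the data were seen, it gave 601 and 283, 695 and 378, and 214 and 74. Genes lower with MG132 numbered 901 without scaling. For ONX0914, 358 were lower in the deposited table, 316 with the mean over probes and 348 without bounds, and 289 were higher and 102 lower among genes measured on all arrays. The cause was not tested. The median of all genes shifted to −0.29, −0.32 and −0.18 with normexp in the order MG132, epoxomicin, ONX0914, to −0.20 with MG132 without scaling, and to −0.11 with MG132 and epoxomicin after a median shift. With 1 array per condition, the number of arrays limits the precision.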
